A study of Mus musculus with 18 samples.

Results

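Dbp, Tef, Hlf, Nfil3 and Usp2, the 4 bZIP factors of circadian clock output and a clock-controlled deubiquitinase, were followed in tibialis anterior muscle of mice labelled wild type (WT) or Bmal1 knockout (BKO). They were chosen by name, with earlier results of these data known, from the deposited table, in which all 5 were found among 20922 genes. All 5 passed the filter on low values (a mean of at least 10 over the 18 libraries), as did 12262 genes in all. The table gives normalized counts, that is, reads per gene divided by 1 factor per library, from total-RNA sequencing.

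The 18 libraries fell into 4 groups: WT intact (n = 5), WT ligated (n = 4), BKO intact (n = 5) and BKO ligated (n = 4). Every group carried the Bmal1 fx/fx alleles in a cross with ACTA-rtTA-TRE-Cre mice, in which doxycycline, given by oral gavage for 3 days, switches on Cre in skeletal muscle. About a week later the femoral artery of one hind limb was tied, a model of peripheral artery disease (PAD), and the muscle of the ligated limb and of the opposite, intact limb was taken at day 36. The labels call the controls Cre+/+ and the knockouts Cre-/-, the reverse of what the names of the groups say, so every direction between genotypes rests on the group names. Cells other than muscle fibres keep Bmal1 in such a cross. The sources used here give no age, sex or strain background, nor the hour at which muscle was taken, which matters for genes that cycle over the day. The labels do not state that the samples of a group came from separate mice, so a p-value reflects no more than the spread of these libraries, which may be technical.

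Bmal1 (Arntl), the targeted gene, read 41.3 to 68.4 normalized counts in the libraries labelled WT intact and 42.4 to 61.1 in those labelled BKO intact. It was at 12.2 to 18.3 in WT ligated and at 63.8 to 82.0 in BKO ligated muscle. A count over the whole gene does not separate full from shortened transcripts, so these values do not check the genotype labels. Libraries held 14089381 to 25629204 reads. The mitochondrial rRNA mt-Rnr2 took 31.9% to 34.3% of the reads in WT intact and 38.1% to 45.3% in WT ligated libraries. In BKO it took 33.6% to 36.1% in intact and 40.9% to 55.5% in ligated libraries. Its share was thus higher in ligated than in intact muscle of each genotype, without overlap, which bears on every comparison of the limbs. The highest shares were in BKO ligated replicates 4 and 5, and calls of members that are lost without these 2 libraries, or values that move much, are given with and without them.

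DBP, TEF and HLF are the proline- and acidic-amino-acid-rich (PAR) basic leucine zipper proteins. BMAL1-CLOCK drives Dbp through E-boxes, and the PAR bZIP proteins in turn activate genes that carry a D-box. NFIL3, also called E4BP4, is a bZIP repressor that binds the same D-boxes, and its gene is driven by ROR and held down by REV-ERB receptors. The PAR bZIP proteins and NFIL3 are therefore commonly described as opposing arms of 1 output pathway. USP2 removes ubiquitin from clock proteins, among others, and its mRNA is rhythmic in many tissues.

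The letters of these elements were looked for in the RefSeq promoters of GRCm38.p6, from 250 bases before to 50 after each start, on both strands. All 5 genes had an entry, with 6 promoters between them, since Tef had an entry for each of its 2 starts. The E-box CACGTG stood in 7.15% of all 32851 promoters and in both of Tef's. The D-box, read as TTATGTAA or TTACGTAA, stood in 1.06%, and AGGTCA, the core of the ROR element, in 16.3%. Nfil3 held the ROR core, read against the direction of the gene. These 3 windows are shown because they are where the members' own promoters hold letters of the clock elements, which stand in capitals.
Tef, first promoter, chr15:81802534-81802563, plus strand: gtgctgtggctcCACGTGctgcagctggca
Tef, second promoter, chr15:81811264-81811293, plus strand: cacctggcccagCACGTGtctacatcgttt
Nfil3, chr13:52981034-52981063, minus strand: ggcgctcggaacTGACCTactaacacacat
The motifs began 127 and 138 bases before the 2 Tef starts and 12 bases before that of Nfil3. Dbp, Hlf and Usp2 held none of these letters in the window, nor CACGTT, a variant E-box found in 4.68% of all promoters. Among 13 listed clock genes with a promoter entry, the D-box letters stood only in Per3, which held them at 205 and 158 bases before its start. Per3, a repressor of BMAL1-CLOCK, is shown for its pair of D-boxes, the element through which the bZIP members act.
Per3, upstream D-box, chr4:151044852-151044881, minus strand: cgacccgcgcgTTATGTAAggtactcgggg
Per3, downstream D-box, chr4:151044805-151044834, minus strand: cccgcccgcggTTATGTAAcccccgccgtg

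The muscle labelled BKO held less of the 3 activators and of Usp2 and more of the repressor Nfil3 than the muscle labelled WT, in intact limbs. The differences ran from 2.15-fold for Hlf to 3.51-fold for Dbp, in ratios of group means. By limma on log2(normalized count + 1), with Benjamini-Hochberg adjustment over 12262 genes, all 5 passed an adjusted p of 0.05, 4 lower and 1 higher. In the same comparison 18.3% of all genes passed, 9.75% lower and 8.56% higher. Since the members were chosen with earlier results known, setting them beside all genes is a description and not a test. The values of the 2 groups did not overlap for any of the 5 members, against 14.4% of all genes without overlap. In ligated limbs 4 of the 5 passed, 3 lower and 1 higher, against 8.84% of all genes, 4.68% lower and 4.16% higher, and 4 of the 5 did not overlap, against 12.9%. These 2 comparisons share no library with each other, but each shares libraries with the comparisons of ligated with intact muscle. Intact muscle came from the limb opposite a ligated one, so the 2 may rest on the same mice. The ligated result is therefore not an independent repeat of the intact one.

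**Figure D1:**
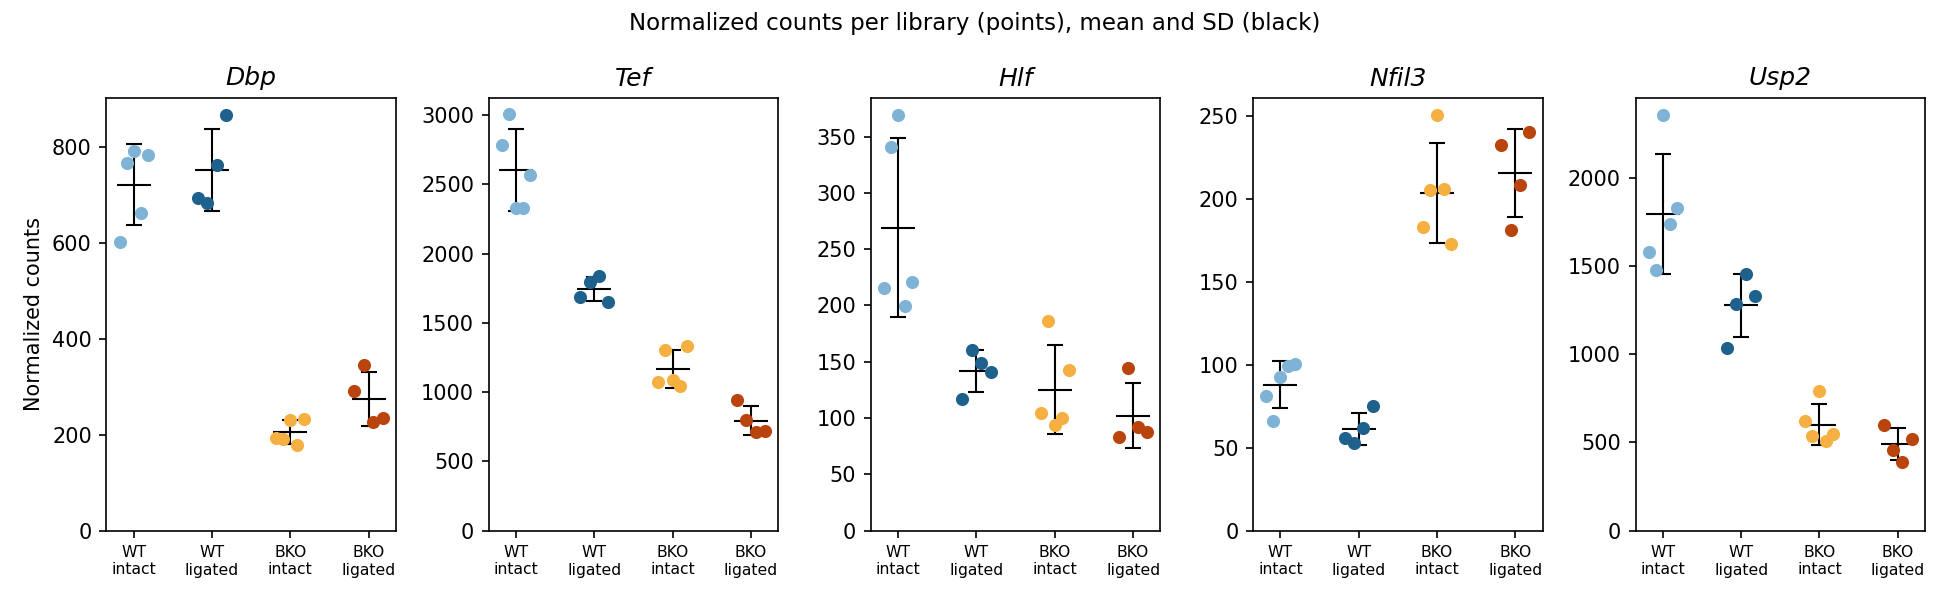
Normalized counts (vertical axis, linear from 0) of the 5 genes in each library, by group (horizontal axis); points are libraries, and black bars are the group mean and SD. Dbp, Tef and Usp2 lie lower and Nfil3 higher in every BKO library than in every WT library, whereas Hlf in ligated WT muscle (116.7 to 160.0) overlaps the BKO groups.

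Dbp (ENSMUSG00000059824, chr7:45705088-45710203, plus strand, mm10), a direct target of BMAL1-CLOCK, read 601.4, 766.3, 791.3, 661.7 and 783.8 normalized counts in the WT intact libraries. It read 192.9, 191.7, 229.4, 178.3 and 233.2 in BKO intact muscle. The highest BKO library thus stood far below the lowest WT library. The group means were 721 ± 84.8 (SD, n = 5) and 205 ± 24.6 (SD, n = 5), and an exact two-sided permutation test gave p = 0.00794, the smallest this design allows. In ligated muscle Dbp read 692.6, 682.1, 762.6 and 867.1 in WT and 290.8, 346.0, 225.7 and 234.1 in BKO. The limma log2 fold change was -1.81 ± 0.12 (SE; adjusted p = 1.31e-09) in intact and -1.47 ± 0.13 (adjusted p = 1.67e-07) in ligated limbs.

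Part of Dbp lies opposite Sphk2, a sphingosine kinase gene on the other strand, with 539 shared exon bases or 18% of those of Dbp. No source used here says whether the counting used strand, so a share of reads between these 2 genes cannot be told apart. Sphk2 was higher in BKO intact muscle (0.48 ± 0.15 on the log2 scale, adjusted p = 0.0255 by limma), opposite to Dbp.

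Tef (ENSMUSG00000022389, chr15:81802421-81826863, plus strand), the second activator and the gene with an E-box in both promoters, read 2783.7, 3007.2, 2325.7, 2328.1 and 2565.0 in WT intact muscle. The BKO intact libraries read 1074.0, 1302.1, 1087.9, 1044.0 and 1332.8, with no overlap. Means were 2602 ± 296 (SD, n = 5) and 1168 ± 138 (SD, n = 5), a 2.23-fold difference. Ligated WT muscle read 1689.8, 1791.4, 1836.1 and 1648.6, and ligated BKO muscle 941.4, 796.4, 713.9 and 719.3. The log2 fold change was nearly the same in both limbs, at -1.16 ± 0.09 (adjusted p = 3.36e-08, limma) in intact and -1.14 ± 0.10 (adjusted p = 1.78e-07) in ligated muscle.

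Hlf (ENSMUSG00000003949, chr11:90336536-90390895, minus strand), the third activator, varied widely within a group. It read 215.5, 341.1, 369.5, 199.4 and 220.8 in WT intact and 104.0, 186.5, 93.5, 99.6 and 142.4 in BKO intact libraries. The groups did not overlap, but WT replicate 5, at 199.4, stood only a little above BKO replicate 2, at 186.5. The log2 fold change was -1.10 ± 0.21 (adjusted p = 0.000652, limma). In ligated muscle Hlf read 116.7, 160.0, 148.9 and 140.8 in WT and 83.0, 144.8, 91.9 and 87.8 in BKO, and the groups overlapped through BKO replicate 4. There the difference of -0.50 ± 0.23 did not pass (adjusted p = 0.196, 95% interval -0.98 to -0.02). That interval still holds a difference near that of intact muscle, and the difference between the 2 limbs did not pass either (0.60 ± 0.31, adjusted p = 0.264). Without BKO ligated replicate 4 the difference in ligated muscle was -0.68 (adjusted p = 0.0863, limma). Without BKO ligated replicates 4 and 5 together it was -0.71 (adjusted p = 0.160).

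Nfil3 (ENSMUSG00000056749, chr13:52967209-52981073, minus strand), the D-box repressor, went the other way. It read 81.3, 66.3, 92.6, 99.2 and 100.4 in WT intact muscle against 183.2, 205.4, 251.1, 206.0 and 173.0 in BKO intact muscle. In ligated muscle the WT libraries read 55.9, 52.9, 61.8 and 74.9 and the BKO libraries 232.9, 181.6, 208.4 and 240.4. Every BKO library was above every WT library. The ratio of group means was 2.32 without and 3.52 with ligation, and the log2 fold changes were 1.21 ± 0.14 (adjusted p = 2.26e-06, limma) and 1.80 ± 0.15 (adjusted p = 6.19e-08). The gaps in the 2 limbs did not differ at an adjusted p of 0.05 (0.59 ± 0.20, adjusted p = 0.0845). Without BKO ligated replicates 4 and 5 the log2 fold change in ligated limbs was 1.94 ± 0.18 (adjusted p = 1.91e-06, limma). WT means, intact and ligated, were 88.0 ± 14.3 (SD, n = 5) and 61.4 ± 9.77 (SD, n = 4), and BKO means were 204 ± 30.1 (SD, n = 5) and 216 ± 26.6 (SD, n = 4). Nfil3 had the fewest reads of the 5 in WT muscle, 270 over the 4 ligated libraries against 7518 for Tef, which limits how finely its values can be compared.

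Usp2 (ENSMUSG00000032010, chr9:44067021-44095627, plus strand) read 1578.3, 1475.8, 2354.3, 1739.6 and 1831.4 in WT intact and 621.5, 534.1, 793.5, 506.5 and 548.6 in BKO intact muscle. The 2 groups were far apart, with means of 1796 ± 341 (SD, n = 5) and 601 ± 116 (SD, n = 5). Ligated WT muscle read 1034.5, 1286.9, 1456.5 and 1327.4, and ligated BKO muscle 598.6, 454.0, 390.2 and 517.1. The log2 fold change was -1.58 ± 0.14 (adjusted p = 1.03e-07, limma) in intact and -1.39 ± 0.16 (adjusted p = 3.21e-06) in ligated limbs. Without BKO ligated replicates 4 and 5 the latter was -1.19 ± 0.18 (adjusted p = 0.000343). Other genes with a Usp symbol, the family name of ubiquitin-specific proteases, were taken by symbol alone. Of the 42 tested, 5 were higher and 4 lower in BKO intact muscle, and 3 were higher and 2 lower in BKO ligated muscle. Of all genes tested, 8.56% were higher and 9.75% lower in intact limbs, and 4.16% higher and 4.68% lower in ligated limbs. The 4 with the smallest p in intact muscle, Usp33 (0.47 ± 0.09), Usp25 (-0.33 ± 0.07), Usp4 (0.29 ± 0.06) and Usp36 (-0.50 ± 0.12), changed by less than Usp2.

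**Figure D2:**
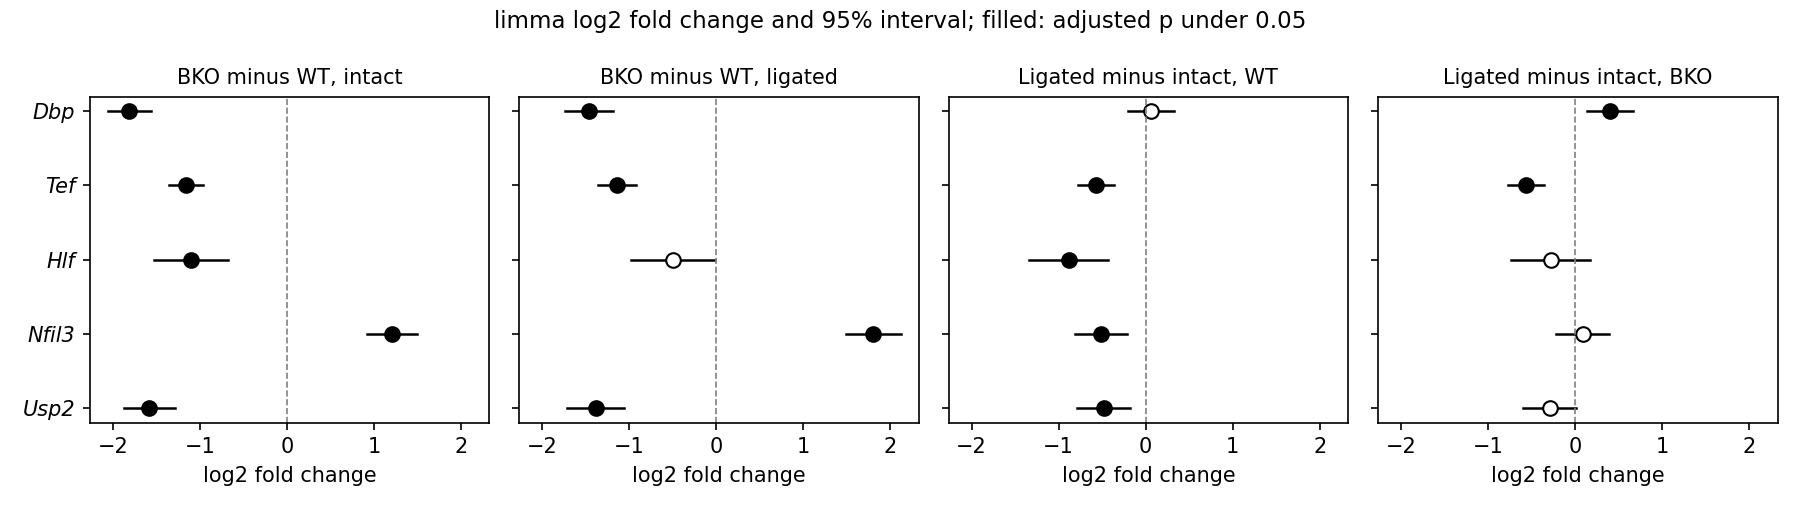
limma log2 fold change (horizontal axis) with its 95% interval for the 5 genes (vertical axis) in 4 comparisons; filled points passed an adjusted p of 0.05. Dbp, Tef and Usp2 are lower and Nfil3 is higher in BKO in both limbs, with Dbp at -1.81 in intact and -1.47 in ligated muscle, and Hlf at -0.88 for ligation in WT.

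Activators and repressor can also be read against each other within a library, which restates the single-gene differences in 1 value. The summed normalized counts of Dbp, Tef and Hlf were 32.1 to 62.0 times those of Nfil3 in WT intact libraries (median 37.6) and 35.5 to 49.8 times in WT ligated libraries (median 44.6). In BKO intact libraries the ratio was 5.62 to 9.88 (median 7.49), and in BKO ligated libraries 4.33 to 7.09 (median 5.30). No BKO library came near any WT library, whereas intact and ligated muscle overlapped within each genotype. The ratio is a description without a test, since its members were chosen with their values known, and it concerns mRNA only. Most of the sum is Tef reads, and the Tef transcript is longer than those of Dbp and Nfil3. Divided by the length of the longest coding transcript, the group medians were 22.4 and 28.2 in WT and 4.06 and 3.15 in BKO, intact and ligated.

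**Figure D3:**
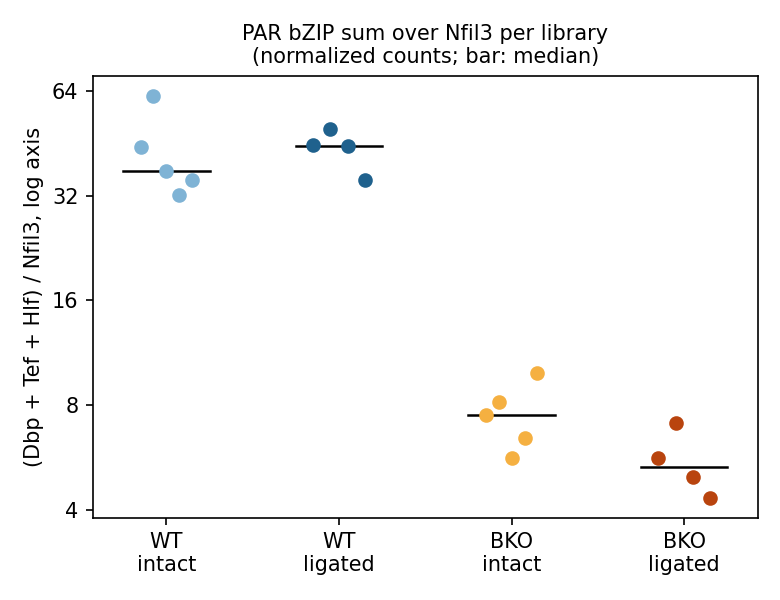
Ratio of the summed normalized counts of Dbp, Tef and Hlf to those of Nfil3 (vertical log axis) in each library, by group (horizontal axis); bars are group medians. The 9 WT libraries lie between 32.1 and 62.0 and the 9 BKO libraries between 4.33 and 9.88.

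Levels of different genes can be set side by side only per length. In WT intact muscle, normalized counts per kb of the longest coding transcript were highest for Tef (591), then Usp2 (464), Dbp (392), Hlf (47.7) and Nfil3 (43.4). Tef and Usp2 overlapped between libraries, as did Usp2 and Dbp, and Hlf and Nfil3, so the clear step was between Dbp and the pair of low genes. In WT ligated muscle Dbp (409), Tef (396) and Usp2 (330) overlapped one another, and so did Nfil3 (30.3) and Hlf (25.1). In BKO intact muscle Nfil3, at 101, and Dbp, at 112, overlapped between libraries. There Tef (265) and Usp2 (155) stood above both and Hlf (22.2) below them. In BKO ligated muscle Tef (180), Dbp (149), Usp2 (127) and Nfil3 (107) each overlapped the next, and Hlf (18.1) stood apart below. These neighbours depend on the transcript used: per kb of the shortest coding transcript, Usp2 was highest in WT intact muscle, at 1209 against 638 for Tef and 624 for Dbp. On that scale Dbp and Nfil3 did not overlap in BKO muscle, with Dbp at 154 to 202 and Nfil3 at 85.4 to 124 in intact limbs and Dbp at 195 to 299 and Nfil3 at 89.6 to 119 in ligated limbs.

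**Figure D4:**
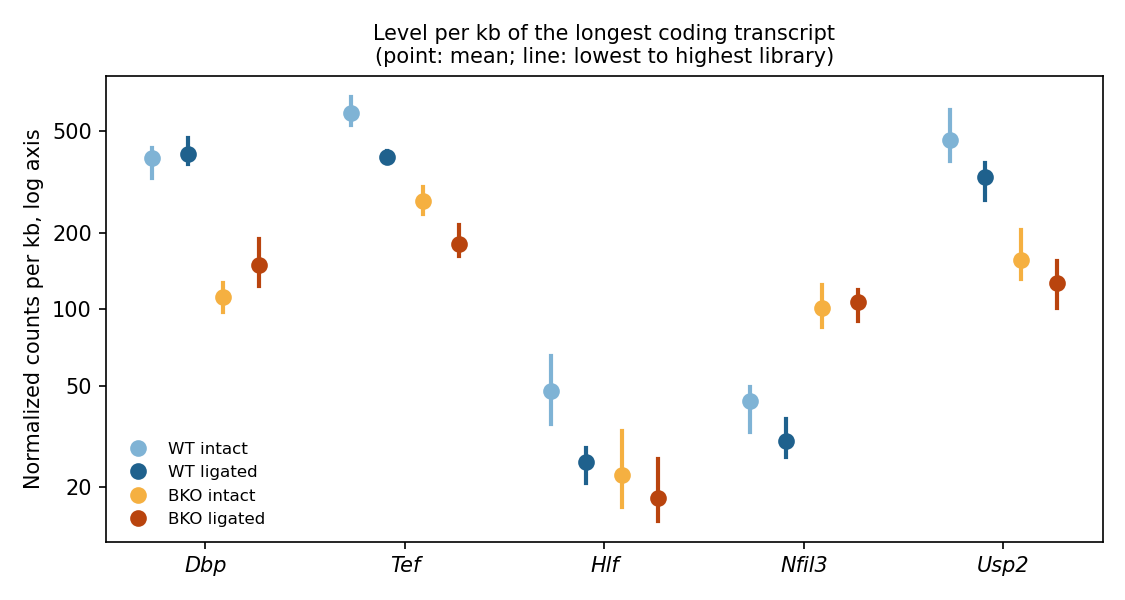
Normalized counts per kb of the longest coding transcript (vertical log axis) of the 5 genes (horizontal axis) in the 4 groups; points are means and lines run from the lowest to the highest library. Nfil3 lies near Hlf in WT muscle (43.4 and 47.7 in intact limbs) and, on this length only, near Dbp in BKO muscle (101 and 112).

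The clock genes that share elements with these factors were read from lists. Of 10 clock genes driven through E-boxes, 9 were lower and 0 higher in BKO intact muscle (median log2 fold change -1.40, against 0.00017 over all genes tested). In ligated muscle 8 were lower and 0 higher (median -0.86, against -0.021). The 4 with the smallest p in intact muscle were Nr1d2, a REV-ERB receptor (-1.68 ± 0.08), Per1 (-2.03 ± 0.13) and the DEC repressors Bhlhe40 (-1.75 ± 0.15) and Bhlhe41 (-1.35 ± 0.13). Of 7 tested clock genes known for D-boxes, 6 were lower and 0 higher in each limb, and all but Rora among these 7 are also in the E-box list. Beside the counts of both lists, 9.75% of all genes were lower and 8.56% higher in intact limbs. In ligated limbs 4.68% were lower and 4.16% higher. Per3, with its 2 D-boxes, averaged 319 ± 27.1 (SD, n = 5) in the WT libraries of intact limbs against 155 ± 50.2 (SD, n = 5) in the BKO libraries. In ligated muscle it was at 509 ± 33.9 (SD, n = 4) and 222 ± 25.9 (SD, n = 4).

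Among clock genes with ROR elements, like Nfil3, Clock (1.11 ± 0.07) and its paralog Npas2 (2.49 ± 0.63) were higher in BKO intact muscle. Bmal1 did not pass there (-0.16 ± 0.17, adjusted p = 0.584, limma). Npas2 was near the floor in WT, with 19 reads over the 5 intact libraries. Its intact groups overlapped, at 0 to 16.6 normalized counts in WT and 12.6 to 23.7 in BKO. In ligated muscle those that were higher included Clock (1.32 ± 0.08), Npas2 (2.91 ± 0.71) and Bmal1 itself (2.05 ± 0.19). Cry1 did not pass in ligated muscle (0.16 ± 0.14, adjusted p = 0.542, limma). The call for Npas2 in ligated muscle was lost without WT ligated replicate 5 (adjusted p = 0.0507, limma) and without BKO ligated replicates 4 and 5 together (adjusted p = 0.0604). Receptors with opposite actions on such elements were lower together. In BKO intact muscle Nr1d1 (-1.44 ± 0.15) and Nr1d2, which repress through them, were lower, as was the activating receptor Rora (-0.81 ± 0.09). The list choice was made with earlier results of these libraries in view, so these counts and values are not independent evidence of direction.

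Few genes known as PAR bZIP targets in liver could be measured in muscle. Of 8 listed, 4 were in the table and 3 passed the filter. Pdxk, the pyridoxal kinase that makes active vitamin B6, averaged 116 ± 16.4 (SD, n = 5) in the WT libraries of intact limbs against 68.6 ± 8.57 (SD, n = 5) in the BKO libraries, a log2 fold change of -0.74 ± 0.14 (adjusted p = 0.000975, limma). In ligated muscle it was at 153 ± 15.9 (SD, n = 4) and 72.4 ± 17.0 (SD, n = 4), a fold change of -1.10 ± 0.16 (adjusted p = 9.74e-05). Alas1, the first enzyme of haem synthesis, was instead higher in BKO intact muscle (0.51 ± 0.11, adjusted p = 0.00233) and did not pass in ligated muscle (-0.05 ± 0.12, adjusted p = 0.851). Por, the electron donor of cytochromes P450, passed in neither limb (-0.14 ± 0.16 and -0.55 ± 0.18). Of 5 C/EBP factors, bZIP proteins of another family, 0 passed in BKO intact muscle by limma, against 18.3% of all genes. There 2 had an unadjusted p under 0.05, and edgeR and DESeq2 each called 1. In BKO ligated muscle Ddit3 (-0.91 ± 0.22) and Cebpa (-0.95 ± 0.27) were lower. The call for Cebpa was lost without any one of WT ligated replicates 2, 4 and 5 and BKO ligated replicates 5 and 6 (adjusted p = 0.0542 to 0.0922, limma).

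Markers of the cell types in muscle were read beside the genotype differences. In intact limbs 3 of 6 markers of smooth muscle and pericytes were lower in BKO, with summed levels of 5411 to 6964 in WT and 4342 to 5384 in BKO libraries. Of 8 skeletal fibre markers 2 were higher and 0 lower, the sums running from 1109770 to 1302450 in WT and from 1092510 to 1305790 in BKO. Of 7 adipocyte, 6 fibro-adipogenic progenitor and 3 satellite cell markers tested 1 each was lower, and of 3 Schwann cell markers 1 was higher. Here edgeR and DESeq2 each called 0 satellite cell and 2 Schwann cell markers. Over all genes tested, 9.75% were lower and 8.56% higher in intact limbs, so single markers called are near that share. In ligated limbs 3 of 8 macrophage markers were lower in BKO (sums of 978 to 1212 in WT and 528 to 880 in BKO). In the same limbs 1 of 7 adipocyte markers (4604 to 6981 and 2254 to 5286) and 2 of 6 progenitor markers (4038 to 4773 and 2518 to 3778) were lower, 1 of 3 satellite cell markers was higher, and fibre markers were higher in 3 and lower in 1 of 8. Over all genes tested, 4.68% were lower and 4.16% higher in ligated limbs. These counts are by limma, and for adipocyte markers in ligated limbs edgeR called 4 and DESeq2 2 (median log2 fold change -1.23). An unadjusted p under 0.05 was met by 6 adipocyte, 7 macrophage, 4 progenitor and 5 fibre markers in ligated limbs. The part of these cells in the members' differences was not tested. Relative to the mean of the 8 fibre markers, the members' genotype differences in intact muscle all passed, at -1.90 for Dbp, -1.25 for Tef, -1.19 for Hlf, -1.67 for Usp2 and 1.11 for Nfil3.

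Ligation was compared within each genotype. In WT muscle 4 of the 5 were lower and 0 higher after ligation, against 39.8% of all genes called, 21.1% lower and 18.7% higher. For 3 of the 5, Tef, Hlf and Usp2, the groups did not overlap, against 32.5% of all genes. Hlf fell by 0.88 ± 0.22 on the log2 scale (adjusted p = 0.00289, limma), from 269 ± 79.6 (SD, n = 5) to 142 ± 18.4 (SD, n = 4), without overlap. Tef fell by 0.57 ± 0.10 (adjusted p = 0.000106), also without overlap. Nfil3 fell by 0.51 ± 0.14 (adjusted p = 0.00776) with overlapping groups, and Usp2 fell by 0.48 ± 0.15 (adjusted p = 0.0131). The Usp2 call was lost without WT ligated replicate 2 (-0.39, adjusted p = 0.0598). Dbp did not move detectably, at 721 ± 84.8 (SD, n = 5) and 751 ± 85.2 (SD, n = 4) normalized counts (log2 fold change 0.06 ± 0.13, adjusted p = 0.731, 95% interval -0.21 to 0.33).

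In BKO muscle 1 member was lower and 1 higher after ligation, against 25.1% and 22.1% of all genes and 47.2% in either direction. The groups did not overlap for 1 of the 5, Tef, against 35.7% of all genes. Tef fell by 0.56 ± 0.10 (adjusted p = 0.000108, limma), nearly as in WT. Dbp rose by 0.40 ± 0.13 (adjusted p = 0.0121), though the groups overlapped, with replicate 5, at 225.7, within the range of the intact libraries and replicate 6, at 234.1, just above it. That call was lost without BKO ligated replicate 4 (0.28, adjusted p = 0.0688) and without replicates 4 and 5 together (0.35, adjusted p = 0.0574). Hlf (-0.28 ± 0.22, adjusted p = 0.302), Usp2 (-0.29 ± 0.15, adjusted p = 0.113) and Nfil3 (0.09 ± 0.14, adjusted p = 0.649) did not pass. Without BKO ligated replicates 4 and 5, Hlf stood at -0.50 (adjusted p = 0.151), Usp2 at -0.09 (adjusted p = 0.728) and Nfil3 at 0.23 (adjusted p = 0.353). Leaving out replicate 4 alone gave -0.46 for Hlf (adjusted p = 0.101), and leaving out BKO intact replicate 2 gave -0.13. Usp2 passed without BKO ligated replicate 2 (-0.39, adjusted p = 0.0448).

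The make-up of the muscle differed between limbs, and in bulk tissue fewer cells of a type and less RNA per cell cannot be told apart. After ligation in WT, 4 of 8 fibre markers were lower and 1 higher, and their summed level ran from 767186 to 896465, below every intact library. All 7 adipocyte markers were higher, with sums of 707 to 937 in intact and 4604 to 6981 in ligated WT libraries. Endothelial markers were higher in 6 of 7 (1942 to 2518 and 3428 to 4495) and macrophage markers in 5 of 8 (511 to 658 and 978 to 1212). In BKO, 4 of 8 fibre markers were lower and 1 higher (sums of 919817 to 1006710 after ligation), all 7 adipocyte markers (718 to 822 and 2254 to 5286) and all 7 endothelial markers were higher, as was 1 of 8 macrophage markers. Smooth muscle and pericyte markers were higher in 3 of 6 in each genotype and lower in 1 of 6 in BKO, with sums of 7130 to 9532 in WT and 6576 to 8214 in BKO after ligation. Progenitor markers were higher in 3 of 6 in WT and 2 of 6 in BKO, and satellite cell markers in 0 of 3 in WT and 2 of 3 in BKO. Of 3 Schwann cell markers 1 was higher in WT and 1 lower in BKO. Over all genes tested, 21.1% were lower and 18.7% higher in WT, and 25.1% lower and 22.1% higher in BKO. By edgeR and DESeq2, as at an unadjusted p under 0.05, 0 satellite cell markers were called in WT. Of 9 lymphocyte and natural killer cell markers 0 passed the filter on low values, with sums of at most 39.8.

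The mean log2 level of the fibre markers fell by 0.31 after ligation in WT and by 0.39 in BKO, less than each of the 4 falls of members called in WT. Relative to that mean, a scaling that moves the median of all genes up by the same amounts, no member was lower at an adjusted p of 0.05 after ligation. In WT the values became -0.57 for Hlf (adjusted p = 0.0700), -0.26 for Tef (adjusted p = 0.0945), -0.20 for Nfil3 (adjusted p = 0.229) and -0.17 for Usp2 (adjusted p = 0.399). Dbp stood at 0.37 (adjusted p = 0.0514). In BKO, Tef stood at -0.17 (adjusted p = 0.263), and Hlf and Usp2 changed sign, to 0.11 and 0.10 (adjusted p = 0.727 and 0.616). Dbp (0.80, adjusted p = 0.000235) and Nfil3 (0.48, adjusted p = 0.00463) were then higher. Whether ligation lowered these genes therefore depends on whether they are read per library or relative to fibre RNA, and no genotype difference changed its call. This scaling was added after seeing the data.

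**Figure D5:**
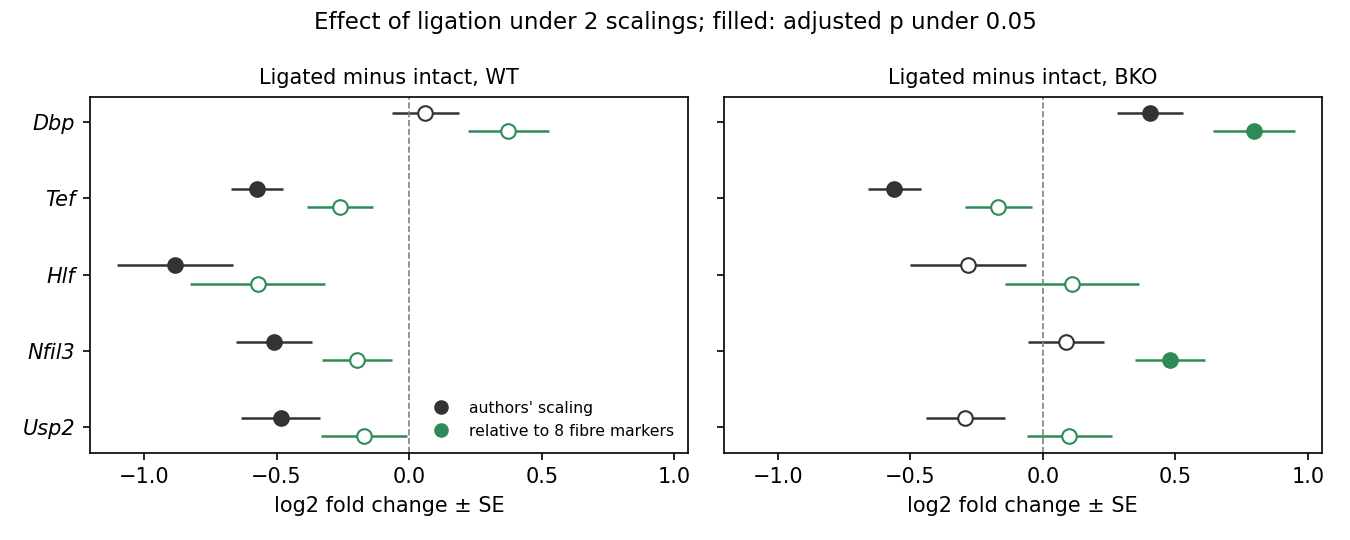
Log2 fold change of ligated against intact muscle ± SE (horizontal axis) of the 5 genes (vertical axis) in WT and BKO, with the authors' scaling (dark) and relative to the mean of 8 skeletal fibre markers (green); filled points passed an adjusted p of 0.05. The 4 falls that passed in WT, such as that of Tef at -0.57, did not pass relative to fibre markers, where Tef stood at -0.26.

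Whether ligation acted differently in the 2 genotypes was tested as the difference of the ligation effects, BKO minus WT. By limma 0 of the 5 members passed, against 6.01% of all genes, and 1 had an unadjusted p under 0.05. That member was Nfil3, at 0.59 ± 0.20 (adjusted p = 0.0845), for which edgeR gave no call and DESeq2 gave 0.61 (adjusted p = 0.0482). The adjusted p for Nfil3 ranged from 0.0431 to 0.159 over 32 alternatives. The differences were 0.60 ± 0.31 for Hlf (adjusted p = 0.264), 0.34 ± 0.18 for Dbp (adjusted p = 0.271), 0.19 for Usp2 (adjusted p = 0.647) and 0.01 for Tef (adjusted p = 0.970). Without BKO ligated replicates 4 and 5, Hlf stood at 0.39 (adjusted p = 0.615) and Usp2 at 0.39 (adjusted p = 0.409). Nfil3 stood at 0.74 (adjusted p = 0.0985) without these 2 libraries. Among the listed E-box genes Per1 (1.21 ± 0.19) and Bhlhe41 (1.16 ± 0.20) did pass.

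The genes around the members also moved with ligation. Among the liver targets, Alas1 (0.68 ± 0.12), Por (0.54 ± 0.17) and Pdxk (0.41 ± 0.15) were higher after ligation in WT muscle. The call for Pdxk was lost without any one of WT intact replicates 4 and 5 and WT ligated replicates 2, 4 and 6 (adjusted p = 0.0574 to 0.111, limma). The call for Por was lost without WT ligated replicate 4 (adjusted p = 0.0757). None of the 3 passed in BKO muscle by limma, by edgeR or by DESeq2, and 0 had an unadjusted p under 0.05. The difference of these ligation effects, BKO minus WT, did not pass for Por (-0.41 ± 0.24, adjusted p = 0.334, limma). Nor did it for Pdxk (-0.35 ± 0.22, adjusted p = 0.359). It passed for Alas1 (-0.56 ± 0.16, adjusted p = 0.0474), a call lost in 19 alternatives, edgeR among them (adjusted p = 0.0545). In the C/EBP family Cebpa, a factor of fat cell differentiation, rose by 3.80 ± 0.26 in WT and by 2.87 ± 0.26 in BKO muscle, where the adipocyte markers above rose too. Of the 42 other genes with a Usp symbol 17 were lower and 0 higher in WT muscle after ligation, and 12 were lower and 3 higher in BKO muscle. Of all genes tested, 21.1% were lower and 18.7% higher in WT, and 25.1% lower and 22.1% higher in BKO. In either direction 39.8% of all genes passed in WT and 47.2% in BKO.

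The genes whose log2 values ran most like each member over the 18 libraries were ranked by Pearson's r among 8251 genes with a mean of at least 50. The libraries share their groups, so r mostly follows the 4 group means, and it is given without a p. For Dbp these were Mylk4, a myosin light chain kinase (r = 0.974), Nr1d2 (r = 0.960) and Bhlhe40 (r = 0.953). Mylk4 averaged 1075 ± 142 (SD, n = 5) in the BKO libraries of intact limbs against 11083 ± 2456 (SD, n = 5) in the WT libraries and, like Dbp, did not pass for ligation in WT (-0.06 ± 0.16). For Tef they were Fnip1, a partner of folliculin (r = 0.972), Sorbs3, the adhesion protein vinexin (r = 0.970), and Trip10 (r = 0.967). All of these 3 were lower in BKO in each limb and lower after ligation in each genotype, the 4 differences that Tef showed.

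Hlf had looser company: Gpx3, the secreted glutathione peroxidase (r = 0.885), Bhlhe41 (r = 0.882) and Pdzd8 (r = 0.866). Bhlhe41, like Hlf, was lower in BKO intact (-1.35 ± 0.13) but did not pass in BKO ligated muscle (-0.19 ± 0.15, adjusted p = 0.479, limma). Nfil3 ran with Chrnb1, the beta subunit of the muscle acetylcholine receptor (r = 0.978), Mrln, the calcium pump inhibitor myoregulin (r = 0.970), and the long non-coding RNA Hectd2os (r = 0.967). Mrln was higher in BKO muscle of intact limbs, at 375 ± 28.9 (SD, n = 5) against 103 ± 23.5 (SD, n = 5). Usp2 ran with the ion cotransporter gene Slc12a2 (r = 0.960), Atl2, which shapes the endoplasmic reticulum (r = 0.958), and the cationic amino acid transporter Slc7a2 (r = 0.955). Ranked by Spearman's rho, the 3 genes for Dbp, Hlf and Usp2 shared 0 with these, so the names rest on the measure of likeness.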

How the data were processed

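The deposited table holds a signal per gene: in all 18 libraries 100% of its values are whole reads divided by 1 factor per library, within 0.001. Reads may be rounded estimates. Per the submitters' processing notes, the authors used Trimmomatic 0.33, STAR 2.5.2, RSEM 1.3.3, DESeq2 and mm10. No source used here names the annotation or the strand setting. Values are not length corrected.

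Groups followed the labels. limma 3.58.1 (R 4.3.3) was fitted to log2(normalized count + 1) of 12262 genes with a mean of at least 10, with 4 group means and an intensity trend, and p-values were adjusted over all genes. Fold changes on this scale understate changes of low genes. Single members were also compared by exact two-sided permutation over libraries. Alternatives included edgeR 4.0.16 and DESeq2 1.42.0 on the recovered reads. The fit was tried on simulated data for BKO against WT in intact muscle only. It recovered 75% of 100 genes changed by 1 on the log2 scale and 98% of 100 changed by 2. Of unchanged genes it called 0.066%. Smaller changes, ligation and the interaction were not simulated. Depth was 14089381 to 25629204 reads, and counting error is only part of the spread. Gene symbols and positions come from GENCODE of mm10, in which 20643 of 20922 genes matched.

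The members and lists were chosen with earlier results of these data known. Named beside the members are Bmal1, up to 4 genes per list with the smallest p in the comparison described, and per member the 3 genes with the highest r. Per3 was named for its D-boxes, Por, Alas1 and Pdxk as all the tested liver targets, and Sphk2 for its overlap, chosen after the annotation was seen. One listed gene is not reported here, and no count is given for its list.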

Additional observations from a re-analysis of the deposited data

Results flagged for a closer look

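Hlf in BKO ligated replicate 4, at 144.8 normalized counts, stood apart from the other 3 libraries of its group by Dixon's criterion, which chance meets in about 1 of 20 groups; 28 groups of values were examined and 1 stood apart. Without it, Hlf for ligation in BKO was -0.46 (adjusted p = 0.101, limma), against -0.28 with it. The same library was among the 2 with the highest share of mt-Rnr2 reads. The effect of ligation on Bmal1 (Arntl) differed between the genotypes: the difference of the 2 effects, BKO minus WT, was 2.21 on the log2 scale (adjusted p = 8.74e-05, limma). Bmal1 fell by 1.73 in WT. Its rise of 0.48 in BKO (adjusted p = 0.0291) lost its call in 7 alternatives, among them leaving out BKO intact replicate 1 or 5, BKO ligated replicate 2 or 5, or BKO ligated replicates 4 and 5 together (adjusted p = 0.0541 to 0.0941 over these).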

How the results depend on the processing

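Of 810 alternatives over the 25 tests of members, 784 kept direction and call, among them all those of the genotype differences. Many alternatives left out a library that the comparison does not use. These cannot move its fold change, only the shared spread. Dbp in BKO against WT intact muscle, for example, stayed at -1.81 without BKO ligated replicate 4. Relative to fibre markers, ligation gave -0.26 (Tef), -0.57 (Hlf), -0.20 (Nfil3) and -0.17 (Usp2) in WT, with 0 members called, and -0.17 (Tef), 0.11 (Hlf), 0.10 (Usp2) and 0.48 (Nfil3) in BKO; the interaction of Nfil3 was 0.67, with 1 member called. By DESeq2 it was 0.61, again with 1 member called, and 1158 genes passed for the interaction, against 737 by limma and 450 without the intensity trend. On the recovered reads edgeR called 4899 genes for ligation in WT, 5757 in BKO, 2285 for genotype in intact and 1126 in ligated limbs and 762 for the interaction. Without BKO ligated replicates 4 and 5, Dbp for ligation in BKO was 0.35 with 1 member called, and 616 genes passed for genotype in ligated limbs (1084 with them) and 269 for the interaction, where fewer libraries were fitted.

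Same-numbered intact and ligated samples may come from 1 mouse, which the labels do not state; over 7 such pairs the r of deviations ran from -0.064 to 0.048, which does not settle it, and the main fit has no block. With a fixed replicate block the interaction of Tef was -0.067 and 382 genes passed for the interaction; the block ended or made no other call of a member, while the calls of Por (adjusted p = 0.0673) and Pdxk (adjusted p = 0.0710) for ligation in WT and of Bmal1 in BKO (adjusted p = 0.108) were lost. Per kb, the log2 ratio of activators to Nfil3 was 4.58 and 4.79 in WT and 1.99 and 1.70 in BKO.

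Leaving out 1 library at a time gave -0.010 to 0.10 for Dbp with ligation in WT (negative without WT intact replicate 2 or WT ligated replicate 6), 0.28 to 0.49 for Dbp in BKO, -0.55 to -0.38 for Usp2 in WT and -0.39 to -0.19 in BKO. It gave -0.073 to 0.062 for the interaction of Tef, near 0 throughout, and 0.53 to 0.69 for that of Nfil3, which passed without WT intact replicate 3. Members called ranged from 1 to 3 for ligation in BKO and from 0 to 1 for the interaction, and genes called for the interaction from 402 (without WT ligated replicate 2; 461 without replicate 5) to 1015. The cause of these changes was not tested.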
